A study of Mus musculus with 24 samples.

Results

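The 37 genes described here bring fatty acids into muscle, carry them into the mitochondrion, oxidise them there and use ketone bodies. They were taken by name: 5 genes of uptake, 4 of activation to acyl-CoA, 5 of the carnitine shuttle, 12 of beta-oxidation, 3 of electron transfer, 3 thioesterases and uncoupling proteins, 2 of malonyl-CoA and 3 of ketone use. All 37 were found by symbol among the 55487 Ensembl mouse genes measured, and every one of them reached 0.5 TPM (a share of all transcripts in a library, corrected for transcript length) in each of 24 libraries, so all 37 passed the filter on low values and were tested.

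The libraries came from the gastrocnemius, a fast-fibred calf muscle, of male C57BL/6J mice, an inbred strain. The mice were assigned to 3 groups of 8 at 10 weeks of age and are labelled 12 weeks old, and each library is 1 mouse. The uncasted group received sterilized water and was not casted, the casted group received sterilized water with both hindlimbs held in casts for 8 days, and the third group was casted in the same way and received MOTS-c at 15 mg/kg/day. Water and MOTS-c were given by intraperitoneal injection 2 times a day for 8 days, so the injections are shared by all 3 groups. MOTS-c is a short peptide encoded within a ribosomal RNA gene of the mitochondrial genome, and casting is a model of muscle disuse. The tissue label was matched by its markers: 12 fast-fibre genes summed to 151580 to 186010 scaled TPM in the uncasted libraries, and 11 slow-fibre genes to 3936 to 4250.4.

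Fatty acids reach muscle bound in lipoproteins or to albumin, are released at the capillary wall by lipoprotein lipase, cross the cell membrane and are held in the cytosol by a binding protein. Synthetases join them to coenzyme A, the carnitine shuttle moves long chains through the mitochondrial membranes, and beta-oxidation then removes acetyl-CoA in repeated cycles of dehydrogenation, hydration, a further dehydrogenation and thiolysis. Ketone bodies enter the same acetyl-CoA pool through enzymes of their own, and malonyl-CoA holds back the entry of fatty acids at the carnitine shuttle.

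TPM are shares of a total, so a level depends on what else is in the library. Levels below are scaled TPM, brought to a common level by trimmed mean log ratios between libraries, and log2 changes are differences in log2(scaled TPM + 1) with the standard error from limma. On the deposited TPM, without that scaling, the median log2 change of all 14690 genes tested was 0.39 for casting, 0.34 for casting with MOTS-c, both against the uncasted group, and -0.07 for MOTS-c against casting alone. Directions therefore hold relative to the middle of all genes, and changes on the deposited scale are given beside them. The ratio of 2 genes within a library does not depend on the scaling. The libraries held 19832 to 21755 genes above 0 each, and the scaling factors ran from 0.731 to 0.854 in the uncasted, 0.997 to 1.24 in the casted and 0.891 to 1.21 in the MOTS-c group. The tissue was sequenced in bulk, so fewer cells of a type and less RNA per cell cannot be told apart.

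The first comparison, casted against uncasted mice given water, asked which of these genes differ after disuse. On the scaled values 24 of the 37 genes were lower, 5 were higher and 8 did not pass (limma, adjusted p under 0.05), where 27.7% of all genes tested were lower and 28.7% higher (56.5% in either direction). The median change was -0.31 over the 37 genes and 0.01 over all genes. The 37 genes together summed to 4880 ± 240.0 scaled TPM (SD, n = 8) without casting and 3515 ± 302 with it. On the deposited scale the count turned: 18 were higher and 9 lower, beside 62.2% and 7.43% of all genes, the median was 0.14, and the sum was 3914 ± 202 against 4041 ± 438. The calls that were the same on both scales were 5 rises (Acsl3, Acsl6, Acadl, Eci2 and Mlycd) and 9 falls (Fabp3, Lpl, Acadm, Hadhb, Acaa2, Decr1, Acot13, Oxct1 and Bdh1). Another 6 genes, Cd36, Crat, Acadvl, Etfa, Etfb and Etfdh, passed as lower on the scaled values and as higher on the deposited ones.

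**Figure D1:**
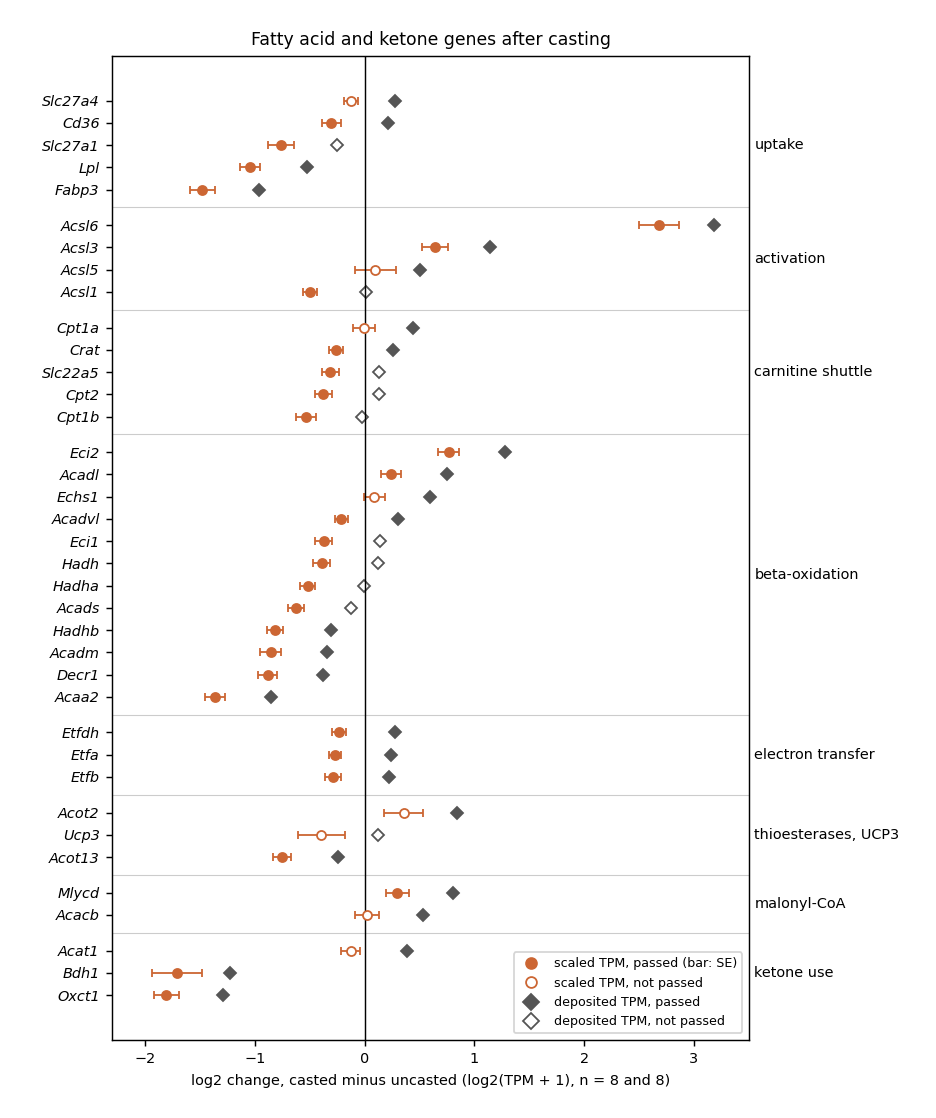
Log2 change of each of the 37 genes between 8 casted and 8 uncasted libraries, grouped by role. Circles with SE bars are scaled TPM and diamonds the deposited TPM, filled where the adjusted p passed 0.05. Every diamond lies to the right of its circle, and 9 genes have both symbols filled on the left of 0.

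In 21 of the 37 genes the 8 casted and 8 uncasted libraries did not overlap on the scaled values, 3 of them higher and 18 lower with casting; 22.4% of all genes tested did not overlap (11.5% higher and 10.9% lower). On the deposited scale 13 of the 37 did not overlap, 6 higher and 7 lower, beside 38.0% of all genes (35.7% higher and 2.25% lower).

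Uptake genes were lower in 4 of 5 cases on the scaled values, with a median change of -0.76 (-0.26 on the deposited scale), and 2 of these falls, Fabp3 and Lpl, passed on both scales. Fabp3, the heart and muscle fatty acid binding protein and the most abundant of the 37 genes in uncasted muscle (11.5% of their sum), lies at chr4:130308595-130315463. Fabp3 ranged from 459.6 to 640.5 scaled TPM (median 560.5) in the uncasted libraries, from 157 to 249.9 (median 207) in the casted ones and from 181 to 337 (median 259) with MOTS-c. All 8 casted libraries lay below all 8 uncasted ones, and the MOTS-c libraries lay below the uncasted ones too. Fabp3 fell with casting by 1.48 ± 0.11 (adjusted p = 1.8854e-10), to 0.361 of the uncasted mean, and by 0.96 on the deposited scale. A pseudogene, Fabp3-ps1, is 99.3% identical to it and held 7.76, 4.12 and 4.98 scaled TPM on average in the 3 groups, so a small part of the Fabp3 reads may be counted there. Lpl, lipoprotein lipase, stands at chr8:68880491-68907448. Lpl stood at 237 to 303 scaled TPM (median 287) in uncasted libraries, at 111 to 161 (median 137) in casted ones and at 137 to 215 (median 171) in those with MOTS-c. Here too the casted and uncasted libraries did not overlap, and Lpl fell by 1.04 ± 0.09 (adjusted p = 2.7317e-09; 0.53 lower on the deposited scale).

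Cd36, the membrane fatty acid translocase, moved less than the binding protein. Scaled TPM of Cd36 ran from 167 to 238 (median 209) without casting, from 139 to 207 (median 159) with casting and from 143 to 228 (median 195) with casting and MOTS-c. The 3 groups overlapped, and the change with casting was -0.30 ± 0.09 (adjusted p = 0.00445) on the scaled and 0.21 (adjusted p = 0.0463) on the deposited values. Within a library the ratio of Fabp3 to Cd36 had a median of 2.77 without casting, 1.24 with casting and 1.35 with MOTS-c. The casted ratio lay below the uncasted one (log2 difference -1.18, exact permutation p = 0.0001554, two-sided, the smallest that 12870 splits can give; adjusted p = 0.0004144 over 24 ratio tests), with no overlap between those 2 groups.

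The fatty acid transport proteins Slc27a1 and Slc27a4 take up long chains and join them to coenzyme A. Slc27a1 ranged from 45.3 to 58.2 scaled TPM (median 47.7) in the uncasted libraries, from 18.6 to 36.4 (median 28.4) in the casted ones and from 25.3 to 46.01 (median 37.2) with MOTS-c. Slc27a4 stood at 3.10 to 4.49 scaled TPM (median 3.82) in uncasted libraries, at 3.15 to 3.74 (median 3.49) in casted ones and at 2.57 to 3.88 (median 3.35) in those with MOTS-c. Slc27a1 was lower in every casted library than in any uncasted one on the scaled values (-0.76 ± 0.12, adjusted p = 8.3277e-06), and did not pass on the deposited ones (-0.26, adjusted p = 0.0701). Slc27a4, expressed at a far lower level, changed by -0.12 ± 0.07 (adjusted p = 0.120) on the scaled and 0.28 (adjusted p = 0.00827) on the deposited scale, and passed as lower on the scaled values without uncasted replicate 4 (-0.16, adjusted p = 0.041801). Their ratio was lower with casting (log2 difference -0.62, exact permutation p = 0.0001554, adjusted p = 0.0004144), from a median of 12.4 to 8.21, and was 11.2 with MOTS-c.

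Cells other than muscle fibres also express Cd36 and Lpl, and their markers differed between the groups. Of 12 endothelial markers 11 were lower and 1 higher with casting on the scaled values (3 lower and 2 higher on the deposited ones), and their sum ranged from 164.8 to 236.6 scaled TPM in the uncasted, 124 to 176 in the casted and 149 to 190.4 in the MOTS-c libraries. Of 13 adipocyte markers 2 were higher and 1 lower (10 and 1 on the deposited scale), with sums of 488 to 587, 485 to 710.3 and 495 to 779.8. Most of these sums came from Slc2a4 and Pnpla2, which muscle fibres express too. Slc2a4 had means of 300, 179 and 184 scaled TPM in the 3 groups and Pnpla2 143, 300 and 277. The sums therefore do not measure adipocytes alone. Of 12 macrophage markers 11 were tested and 9 were higher (11 on the deposited scale), with sums of 92.3 to 122, 115 to 272 and 143 to 340.4. Among the fibre genes, 10 of 11 slow-fibre and 11 of 12 fast-fibre genes were lower with casting, and 4 and 8 of them were lower on the deposited scale. The other fast-fibre gene, Myh1, was higher on both scales, with means of 881 ± 112 scaled TPM without and 1234 ± 321 with casting (SD). No listed marker was at 0 in all libraries of a group, and the part of these cell types and fibres in the changes described here was not tested.

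**Figure D2:**
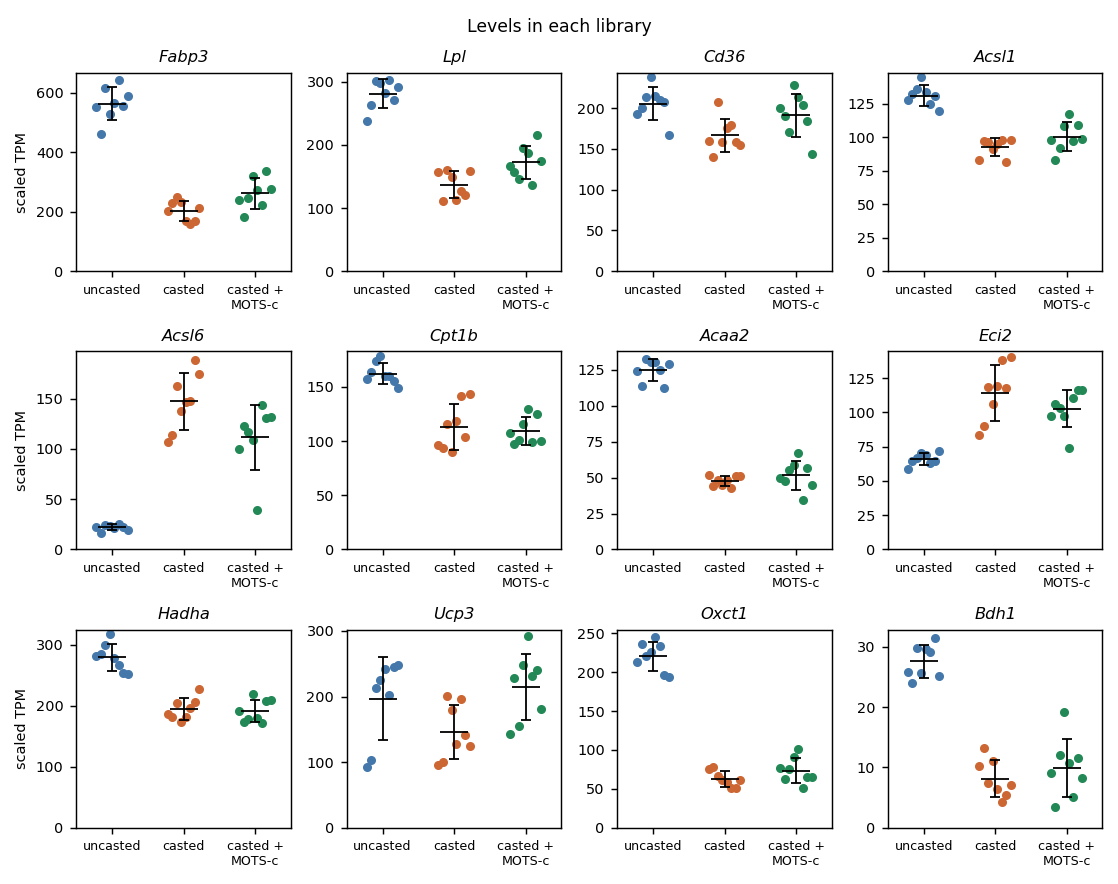
Scaled TPM of 12 genes in each library, with the mean (bar) and SD over 8 libraries per group. Fabp3, Lpl, Acaa2, Oxct1 and Bdh1 are lower in every casted than in any uncasted library, Acsl6 and Eci2 are higher, and 1 MOTS-c library lies at 39.1 for Acsl6.

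The acyl-CoA synthetases went in different directions. Of these 4 genes 2 were higher with casting, Acsl3 and Acsl6, and 1, Acsl1, was lower on the scaled values. Acsl6, a synthetase best known from brain and muscle, at chr11:54303798-54364756, had the largest change of all 37 genes. Scaled TPM of Acsl6 ran from 16.2 to 25.7 (median 22.3) without casting, from 107 to 188 (median 147) with casting and from 39.1 to 144 (median 119.7) with casting and MOTS-c. All casted libraries lay above all uncasted ones, with or without MOTS-c. The rise with casting was 2.68 ± 0.18 (adjusted p = 4.3036e-11; 3.18 on the deposited scale), to 6.71 times the uncasted mean. Acsl1, the main synthetase of oxidative tissues, went the other way on the scaled values. Acsl1 ranged from 119 to 145 scaled TPM (median 131) in the uncasted libraries, from 81.7 to 98.2 (median 95.6) in the casted ones and from 82.8 to 117 (median 98.1) with MOTS-c. The casted and uncasted libraries did not overlap (-0.50 ± 0.06, adjusted p = 3.3586e-07), but on the deposited scale the difference was 0.01 (adjusted p = 0.857).

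Ratios within a library, where no scaling enters, separated these genes too. The ratio of Acsl1 to Acsl6 had a median of 6.00 without casting, 0.654 with casting and 0.812 with MOTS-c. Every uncasted library held more Acsl1 than Acsl6 and every casted library with water held less. The difference with casting was -3.24 on the log2 scale (exact permutation p = 0.0001554, adjusted p = 0.0004144). Acsl3 had means of 24.03 ± 1.90, 38.4 ± 7.36 and 30.9 ± 6.94 scaled TPM in the uncasted, casted and MOTS-c groups (SD, n = 8 each) and rose with casting by 0.64 ± 0.12 (adjusted p = 6.3133e-05; 1.14 on the deposited scale). Acsl5, at 4.04 ± 1.37 and 4.48 ± 1.93 scaled TPM without and with casting, did not pass on the scaled values (adjusted p = 0.676) and changed by 0.50 (adjusted p = 0.0232) on the deposited ones. Its exons share 404 bases with Zdhhc6 on the opposite strand, at 22.8 TPM over all libraries, so its level is uncertain.

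An antisense gene lies inside Acsl6. Gm12224 runs on the opposite strand at chr11:54340369-54353479, and 202 of its 1091 exonic bases are shared with Acsl6 exons. It had 109 ± 13.1 scaled TPM without casting, 26.02 ± 7.19 with casting and 29.97 ± 8.9996 with MOTS-c (SD, n = 8), and fell with casting by 2.07 ± 0.16 (limma, adjusted p = 2.4962e-10; -1.56 on the deposited scale). No source used here says whether strand was kept, so reads from the shared bases cannot be told apart. The sum of both genes was 131 ± 13.0, 173 ± 22.8 and 142 ± 25.6 scaled TPM.

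The sequence before Acsl6 is shown because this gene changed most and because, among the 30 genes with a RefSeq promoter window, it was the one with a full match to a motif of the oestrogen-related receptors, factors known to act on oxidative genes. The stretch is on GRCm38.p6 (RefSeq), plus strand, chr11:54303574-54303797, and ends just before the annotated start of the gene. Capitals mark exact matches on either strand to AGGTCA, the half-site of nuclear receptors, and to TCAAGGTCA, the receptor motif, which contains the half-site and here reads as its reverse complement.
before Acsl6: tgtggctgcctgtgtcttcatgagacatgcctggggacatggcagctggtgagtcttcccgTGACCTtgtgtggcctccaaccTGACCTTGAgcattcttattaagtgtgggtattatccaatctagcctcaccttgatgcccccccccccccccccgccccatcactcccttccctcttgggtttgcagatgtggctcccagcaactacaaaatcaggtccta
RefSeq promoter windows, which run from 250 bases before to 50 after a gene's start, were found for 30 of the 37 genes (36 windows), and both strands were searched. TCAAGGTCA was in 1 of these 36 windows (2.78%) and in 0.423% of all 32851 windows, and AGGTCA was in windows of 8 genes (Acacb, Acadm, Acadvl, Acsl6, Cd36, Cpt1a, Echs1 and Ucp3; 22.2% of windows beside 16.3% of all). The direct repeat AGGTCANAGGTCA, the motif of the peroxisome proliferator-activated receptors, was in 0 of the 36 windows and in 0.0396% of all. A match describes the letters and does not show a site in use.

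In the carnitine shuttle 4 of 5 genes were lower with casting on the scaled values, with a median of -0.31, while on the deposited scale 2 of the 5 were higher, none was lower and the median was 0.13. The isoforms of carnitine palmitoyltransferase 1 set the rate of entry, Cpt1b being the muscle form and Cpt1a the liver form. Cpt1b stood at 149 to 178 scaled TPM (median 160.1) in uncasted libraries, at 90.3 to 144 (median 109.5) in casted ones and at 97.00 to 129.7 (median 104) in those with MOTS-c. Scaled TPM of Cpt1a ran from 5.14 to 8.36 (median 6.86) without casting, from 5.10 to 8.17 (median 6.97) with casting and from 6.63 to 9.69 (median 8.17) with casting and MOTS-c. Cpt1b did not overlap between casted and uncasted libraries on the scaled values, and Cpt1a overlapped in all groups. Cpt1b changed by -0.54 ± 0.09 (adjusted p = 1.623e-05), with -0.02 (adjusted p = 0.847) on the deposited scale. Its exons share 2744 bases with Gm44502 on the same strand, listed at 0.710 TPM over all libraries, so a small part of its reads may be counted there. Cpt1a changed by -0.01 ± 0.10 (adjusted p = 0.951) on the scaled and 0.44 (adjusted p = 0.00198) on the deposited scale.

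The ratio of Cpt1a to Cpt1b was higher with casting and stayed far below 1. Medians were 0.0417 without casting, 0.0647 with casting and 0.0701 with casting and MOTS-c. The rise with casting was 0.53 on the log2 scale (exact permutation p = 0.01072, adjusted p = 0.02145), and without casted replicates 1 to 4 it was 0.29 (adjusted p = 0.2795). MOTS-c against casting alone did not pass for this ratio (0.30, exact permutation p = 0.1064, adjusted p = 0.1419), and passed without those 4 replicates (0.55, adjusted p = 0.048485). Between MOTS-c and uncasted libraries the difference was 0.83 (exact permutation p = 0.0001554, adjusted p = 0.0004144), with no overlap. Cpt2, the inner membrane transferase, Crat, which joins short chains to carnitine, and Slc22a5, the carnitine importer, changed by -0.38 ± 0.08, -0.26 ± 0.07 and -0.31 ± 0.08, all past the threshold as lower. On the deposited scale the same 3 genes stood at 0.13, 0.26 and 0.13, and only Crat passed there, as higher (adjusted p = 0.00152).

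Malonyl-CoA is made at the outer mitochondrial membrane by Acacb, acetyl-CoA carboxylase 2, and removed by Mlycd, malonyl-CoA decarboxylase. Mlycd ranged from 41.02 to 53.1 scaled TPM (median 48.8) in the uncasted libraries, from 39.4 to 81.5 (median 60.5) in the casted ones and from 44.8 to 62.2 (median 52.9) with MOTS-c. Acacb stood at 58.98 to 79.9 scaled TPM (median 69.8) in uncasted libraries, at 54.5 to 99.1 (median 67.5) in casted ones and at 52.6 to 77.2 (median 67.7) in those with MOTS-c. Both genes overlapped between the groups, and the casted libraries were the most spread out. Mlycd was higher with casting by 0.30 ± 0.11 (adjusted p = 0.0201; 0.80 on the deposited scale). This call was lost without casted replicate 8 (0.23, adjusted p = 0.052815) and without casted replicates 5 to 8 (0.06, adjusted p = 0.66865). Acacb changed by 0.02 ± 0.11 (adjusted p = 0.881; 0.53 on the deposited scale, adjusted p = 0.000429). Their ratio, Acacb to Mlycd, was lower with casting (log2 difference -0.28, exact permutation p = 0.009635, adjusted p = 0.02102), with medians of 1.48, 1.21 and 1.28 in the 3 groups. Without casted replicates 5 to 8 the difference was -0.24 (adjusted p = 0.11515).

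Of the 12 beta-oxidation genes 9 were lower and 2 higher with casting on the scaled values (median -0.46), and 4 were lower and 4 higher on the deposited ones (median 0.06). The 4 falls on both scales were Acaa2, Decr1, Acadm and Hadhb. Acaa2, the thiolase that ends the cycle for medium chains, lies at chr18:74779197-74806208. Scaled TPM of Acaa2 ran from 112 to 133 (median 127) without casting, from 43.1 to 52.02 (median 48.5) with casting and from 34.2 to 67.4 (median 52.5) with casting and MOTS-c. The casted libraries, with or without MOTS-c, all lay below the uncasted ones. Acaa2 fell by 1.36 ± 0.09 (adjusted p = 2.765e-11; 0.85 lower on the deposited scale), to 0.384 of the uncasted mean. Acadm, the medium-chain acyl-CoA dehydrogenase, at chr3:153922357-153944632, was the most abundant acyl-CoA dehydrogenase in uncasted muscle, while in both casted groups Acadl had the higher mean. Acadm ranged from 275 to 344 scaled TPM (median 315) in the uncasted libraries, from 146 to 206 (median 169) in the casted ones and from 151 to 255 (median 199) with MOTS-c. Its casted libraries also lay below all uncasted ones, and it fell by 0.85 ± 0.10 (adjusted p = 6.1758e-08; 0.34 lower on the deposited scale). Decr1, the reductase that unsaturated chains need, had means of 54.8 ± 3.02, 29.3 ± 2.54 and 32.5 ± 5.32 scaled TPM (SD, n = 8) and fell by 0.89 ± 0.09 (adjusted p = 6.5821e-09; 0.38 lower on the deposited scale).

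The dehydrogenases that start the cycle for longer chains are Acadl and Acadvl. Acadl stood at 179.6 to 226 scaled TPM (median 200.3) in uncasted libraries, at 177 to 279 (median 243) in casted ones and at 203 to 291 (median 235) in those with MOTS-c. Scaled TPM of Acadvl ran from 173 to 190.1 (median 185) without casting, from 133 to 182 (median 158) with casting and from 137 to 159.9 (median 149) with casting and MOTS-c. Acadl, the long-chain enzyme, was higher with casting by 0.24 ± 0.09 (adjusted p = 0.0253; 0.75 on the deposited scale), although the groups overlapped. That call was lost when any of uncasted replicates 1 and 2 or casted replicates 5, 7 and 8 was left out (adjusted p from 0.050072 to 0.059202), and with casted replicates 5 to 8 left out the change was 0.08 (adjusted p = 0.54055). Acadvl, the very-long-chain enzyme, changed by -0.21 ± 0.06 (adjusted p = 0.00310) on the scaled and 0.30 (adjusted p = 0.000575) on the deposited scale. The ratio of Acadl to Acadvl separated the groups within libraries. Its median was 1.06 without casting, 1.48 with casting and 1.61 with MOTS-c, and the 8 casted libraries all lay above the 8 uncasted ones (difference 0.45 on the log2 scale, exact permutation p = 0.0001554, adjusted p = 0.0004144). Acadvl shares 1151 exonic bases with Dvl2 on the opposite strand, a gene at 3.49 TPM over all libraries. The short-chain dehydrogenase Acads was lower on the scaled values, -0.63 ± 0.07 (adjusted p = 1.374e-07), and stood at -0.13 (adjusted p = 0.273) on the deposited ones.

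Eci2, an isomerase for unsaturated chains found in mitochondria and peroxisomes, at chr13:34977748-35027096, rose against most of its group. Eci2 ranged from 58.8 to 71.6 scaled TPM (median 65.7) in the uncasted libraries, from 83.9 to 140.5 (median 118) in the casted ones and from 74.4 to 116 (median 105) with MOTS-c. The casted libraries, with or without MOTS-c, all lay above the uncasted ones. Eci2 rose by 0.77 ± 0.10 (adjusted p = 3.8216e-07; 1.28 on the deposited scale), to 1.73 times the uncasted mean. Its relative Eci3, 92.3% identical to it, was at 0.118 TPM over all libraries. Its mitochondrial relative Eci1 was lower on the scaled values, -0.37 ± 0.08 (adjusted p = 0.000246), and stood at 0.14 (adjusted p = 0.215) on the deposited ones. Echs1, the short-chain hydratase, changed by 0.09 ± 0.10 (adjusted p = 0.463) on the scaled and 0.60 (adjusted p = 0.000117) on the deposited scale. Its scaled change turned with the casted libraries used, at 0.29 (adjusted p = 0.017927) without casted replicates 1 to 4 and -0.12 (adjusted p = 0.33798) without 5 to 8. Hadh, the hydroxyacyl-CoA dehydrogenase for shorter chains, changed by -0.39 ± 0.08 (adjusted p = 0.000164) on the scaled and 0.12 (adjusted p = 0.183) on the deposited scale.

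Hadha and Hadhb encode the alpha and beta subunits of the mitochondrial trifunctional protein, which carries out the last 3 steps of the cycle for long chains. The genes lie head to head on opposite strands, Hadha at chr5:30118304-30155162 and Hadhb at chr5:30155248-30184593, and 272 bases separate their RefSeq starts, so 1 stretch of DNA serves as the upstream sequence of both. The bases between their annotated ends are shown because the subunit messages, although the genes share their upstream stretch, changed by different amounts. They are on GRCm38.p6 (RefSeq), plus strand, which is the strand of Hadhb, chr5:30155163-30155247, all in lower case because none of the 3 motifs named for Acsl6 is in them, and 69.4% of the bases are G or C.
between Hadha and Hadhb: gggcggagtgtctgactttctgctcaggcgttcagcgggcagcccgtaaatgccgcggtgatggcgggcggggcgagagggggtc
Hadha stood at 251 to 317 scaled TPM (median 279.6) in uncasted libraries, at 174 to 227 (median 191) in casted ones and at 171 to 219 (median 186) in those with MOTS-c. Scaled TPM of Hadhb ran from 275 to 311 (median 296) without casting, from 143 to 202 (median 165) with casting and from 156 to 211 (median 174) with casting and MOTS-c. Neither gene overlapped between casted and uncasted libraries on the scaled values. Hadhb fell by 0.82 ± 0.07 (adjusted p = 9.7582e-10; 0.30 lower on the deposited scale), while Hadha changed by -0.52 ± 0.07 (adjusted p = 3.8756e-07) on the scaled and -0.01 (adjusted p = 0.965) on the deposited values. The ratio of Hadhb to Hadha had a median of 1.06 without casting, 0.875 with casting and 0.931 with MOTS-c, and it was lower with casting (log2 difference -0.30, exact permutation p = 0.0001554, adjusted p = 0.0004144), without overlap. A processed copy of Hadhb on chromosome 2, Gm13910, is 99.8% identical to it over its whole length and had 24.5 ± 2.74, 13.6 ± 1.40 and 13.1 ± 0.632 scaled TPM in the 3 groups (SD, n = 8), so some Hadhb reads may be counted there. With the copy added to Hadhb the ratio differed by -0.30 with casting, an alternative chosen after the data were seen.

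The electron transfer flavoprotein passes the electrons of the dehydrogenases to the respiratory chain, with Etfa and Etfb as its subunits and Etfdh as the membrane enzyme that receives them. All 3 genes were lower with casting on the scaled values and higher on the deposited ones, past the threshold each time, with medians of -0.27 and 0.24. Etfa ranged from 161 to 178 scaled TPM (median 169.9) in the uncasted libraries, from 129 to 159 (median 139) in the casted ones and from 125 to 156 (median 141) with MOTS-c. Etfb stood at 179 to 272 scaled TPM (median 223) in uncasted libraries, at 160.3 to 204 (median 184) in casted ones and at 158 to 200.2 (median 174) in those with MOTS-c. Etfa did not overlap between casted and uncasted libraries on the scaled values, and Etfb did. The scaled changes were -0.27 ± 0.05 for Etfa, -0.29 ± 0.07 for Etfb and -0.24 ± 0.06 for Etfdh. The ratio of Etfb to Etfa was not shown to differ. Its medians were 1.28, 1.30 and 1.29 and the difference with casting was -0.02 (exact permutation p = 0.8019).

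**Figure D3:**
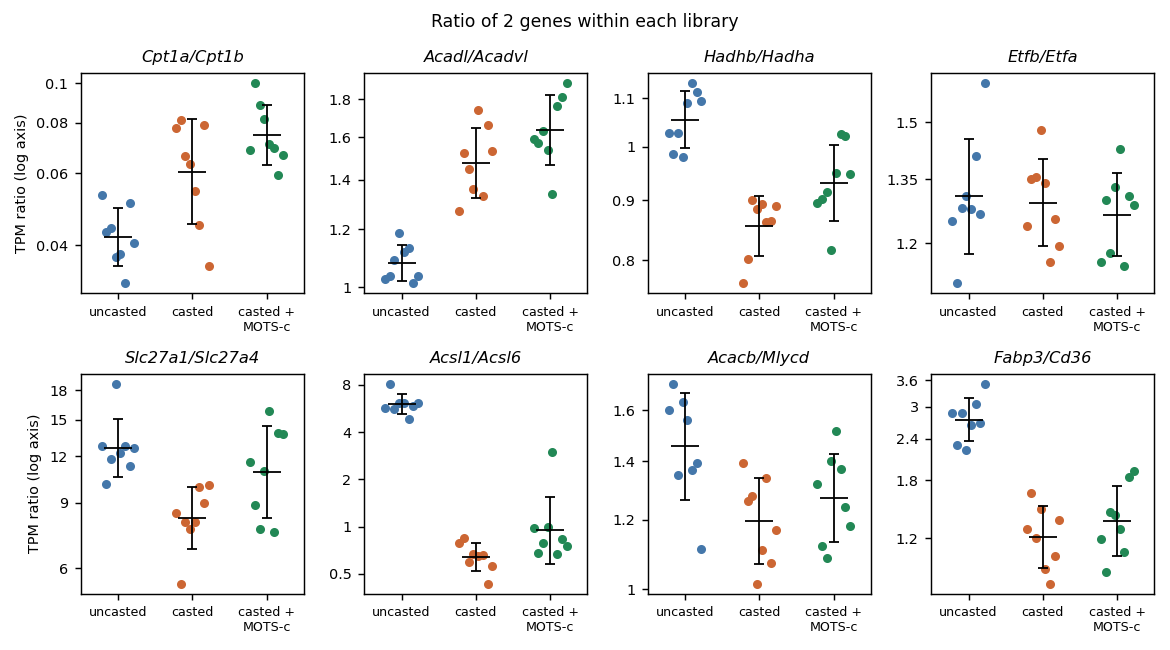
Ratio of 2 genes within each library for 8 pairs, on log axes, with the mean and SD of the log2 ratio over 8 libraries per group. The casted and uncasted libraries are apart for Acadl/Acadvl, Hadhb/Hadha, Slc27a1/Slc27a4, Acsl1/Acsl6 and Fabp3/Cd36, and overlap for Etfb/Etfa.

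Acyl-CoA thioesterases release fatty acids from coenzyme A, and uncoupling protein 3, encoded by Ucp3, is a muscle mitochondrial carrier whose message is known to follow fatty acid supply. Acot13 ranged from 91.7 to 136.7 scaled TPM (median 109.3) in the uncasted libraries, from 56.5 to 71.7 (median 64.3) in the casted ones and from 55.4 to 86.8 (median 68.9) with MOTS-c. Its means were 110.1 ± 12.7, 64.6 ± 5.07 and 70.9 ± 9.76 (SD, n = 8). The casted and uncasted libraries did not overlap on the scaled values, and Acot13 fell by 0.76 ± 0.08 (adjusted p = 2.5764e-08, and 0.24 lower on the deposited scale). Acot2, the mitochondrial thioesterase, had 14.3 ± 2.27, 19.6 ± 7.21 and 23.2 ± 5.24 scaled TPM and did not pass with casting on the scaled values (0.36 ± 0.18, adjusted p = 0.0914), but passed as higher on the deposited ones (0.84, adjusted p = 0.000227). On the scaled values it passed as higher without casted replicates 1 to 4 (0.61, adjusted p = 0.0024549), and without casted replicate 1 (0.45, adjusted p = 0.028598) or 2 (0.48, adjusted p = 0.013256). It is 97.3% identical to Acot1 over most of the shorter transcript, so the division of reads between them is uncertain. Scaled TPM of Ucp3 ran from 92.1 to 248 (median 219.5) without casting, from 95.7 to 200.3 (median 134) with casting and from 143 to 292 (median 229.6) with casting and MOTS-c. The groups overlapped widely, and uncasted replicates 1 and 2 and casted replicates 1 and 2 were the lowest 4 of the 16 libraries with water. The change of Ucp3 with casting was -0.39 ± 0.21 (adjusted p = 0.117) on the scaled and 0.12 (adjusted p = 0.593) on the deposited scale. Without uncasted replicate 1 it was -0.54 (adjusted p = 0.021967), and without uncasted replicate 2 it was -0.52 (adjusted p = 0.035219).

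Ketone use held the largest falls of the 37 genes. Oxct1 encodes the transferase that activates acetoacetate and commits it to oxidation, and Bdh1 the dehydrogenase that makes acetoacetate from beta-hydroxybutyrate. Oxct1 lies at chr15:4026383-4155344 and Bdh1 at chr16:31422280-31458901. Oxct1 ranged from 194 to 245 scaled TPM (median 224) in the uncasted libraries, from 50.9 to 78.3 (median 60.8) in the casted ones and from 51.4 to 101.1 (median 69.99) with MOTS-c. Bdh1 stood at 23.97 to 31.4 scaled TPM (median 27.5) in uncasted libraries, at 4.25 to 13.2 (median 7.24) in casted ones and at 3.45 to 19.2 (median 9.90) in those with MOTS-c. For both genes every casted library, with or without MOTS-c, lay below every uncasted one. Oxct1 fell with casting by 1.81 ± 0.11 (adjusted p = 9.0169e-12; 1.29 lower on the deposited scale), to 0.285 of the uncasted mean. Bdh1 fell by 1.71 ± 0.23 (adjusted p = 7.1318e-07; 1.23 lower on the deposited scale), to 0.295 of the uncasted mean. Acat1, the mitochondrial acetoacetyl-CoA thiolase that completes the pathway, changed by -0.13 ± 0.09 (adjusted p = 0.220) on the scaled and 0.38 (adjusted p = 0.00113) on the deposited scale, with means of 114 ± 8.16 and 105 ± 15.3 scaled TPM. Without casted replicates 5 to 8 it passed as lower on the scaled values (-0.26, adjusted p = 0.042003).

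MOTS-c against water in casted mice asked whether the peptide alters these genes during disuse. None of the 37 genes passed in limma, 0 higher and 0 lower, where 3 of 14690 genes did (0.0204%; 0.0136% higher and 0.00681% lower). At an unadjusted p under 0.05 there were 8 of the 37 genes, 6 of them higher, and 1986 of all genes. The median change was 0.02 over the 37 genes, and in none of them were the groups apart, beside 0.0749% of all genes. The genes of smallest p were Lpl, Fabp3 and Ucp3, whose values in every group are given above. Lpl changed by 0.33 ± 0.09 (adjusted p = 0.177), Fabp3 by 0.36 ± 0.11 (adjusted p = 0.204) and Ucp3 by 0.57 ± 0.21 (adjusted p = 0.271), and in each the MOTS-c libraries overlapped the casted ones. These changes were 0.26, 0.28 and 0.49 on the deposited scale.

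These values moved with the casted libraries used. Against casted replicates 5 to 8 alone, 2 genes passed as higher with MOTS-c, Fabp3 (0.56, adjusted p = 0.011658) and Lpl (0.42, adjusted p = 0.019604), and 4 as lower, Acsl3 (-0.44), Echs1 (-0.32), Eci2 (-0.32) and Mlycd (-0.38). Over all 14400 genes tested in that fit, 4.92% were higher and 4.92% lower. The count of higher genes among the 37 was near that share, and whether the 4 lower genes exceed it was not tested. Against casted replicates 1 to 4 the lower genes stood at -0.18 (Acsl3), 0.09 (Echs1), 0.04 (Eci2) and 0.10 (Mlycd). Fabp3 stood at 0.17 and Lpl at 0.26 there. Against casted replicates 1 to 4 alone, 0 of the 37 genes passed, beside 1 higher and 1 lower of all 14408 genes tested (0.00694% each). The same 4 replicates differed from the others in level: the mean of Bdh1 was 10.5 scaled TPM in casted replicates 1 to 4 and 5.80 in 5 to 8, and that of Mlycd 49.9 and 69.9. The labels name no batch for these numbers, and the cause of the difference was not tested.

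Among the ratios, 2 differed between MOTS-c and casted libraries. Hadhb to Hadha was higher with MOTS-c by 0.12 on the log2 scale (exact permutation p = 0.02502, adjusted p = 0.04289), a call lost when any of casted replicates 1, 2, 6 and 7 or MOTS-c replicates 5 to 8 was left out (adjusted p from 0.057933 to 0.087113). It was lost as well without casted replicates 1 to 4 (0.09, adjusted p = 0.21515) or 5 to 8 (0.16, adjusted p = 0.069264). Acsl1 to Acsl6 was higher by 0.57 (exact permutation p = 0.01336, adjusted p = 0.02467). Its call was lost without casted replicate 3, 7 or 8 (adjusted p from 0.056441 to 0.064895), as it was without casted replicates 1 to 4 (0.74) or 5 to 8 (0.41), and the difference was 0.34 without MOTS-c replicate 5 (adjusted p = 0.047988), the library at 39.1 scaled TPM for Acsl6. The ratio of Slc27a1 to Slc27a4 differed by 0.41 and did not pass (exact permutation p = 0.03512, adjusted p = 0.05619), but passed without MOTS-c replicate 2, 3 or 6 (adjusted p from 0.022378 to 0.046744). In all, 14 of the 24 ratio tests passed, and of the 8 against casting alone only these 2 did.

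Casting with MOTS-c against the uncasted libraries gave 5 genes higher and 24 lower (limma), beside 26.0% and 24.7% of all genes (50.7% in either direction), and a median of -0.31. The groups did not overlap in 19 genes, 2 higher and 17 lower, beside 15.4% of all genes (7.26% higher and 8.15% lower). On the deposited scale it gave 15 higher and 9 lower, beside 60.0% and 6.94%. This comparison shares the uncasted libraries with that of casting alone, so their values are set side by side. Cd36 stood at -0.30 ± 0.09 with casting and -0.11 ± 0.09 (adjusted p = 0.317) with casting and MOTS-c, Slc27a4 at -0.12 ± 0.07 and -0.19 ± 0.07 (adjusted p = 0.0220, and 0.051264 without MOTS-c replicate 5). Acot2 stood at 0.36 ± 0.18 and 0.65 ± 0.18 (adjusted p = 0.00392), and Mlycd at 0.30 ± 0.11 and 0.15 ± 0.11 (adjusted p = 0.251). On the deposited scale casting with MOTS-c gave 0.33 for Cd36 and 0.15 for Slc27a4, both of the opposite sign, 1.06 for Acot2 and 0.58 for Mlycd. The largest changes were 2.22 ± 0.18 for Acsl6, -1.60 ± 0.11 for Oxct1, -1.52 ± 0.23 for Bdh1, -1.28 ± 0.09 for Acaa2 and -1.12 ± 0.11 for Fabp3. The same 5 genes stood at 2.64, -1.16, -1.11, -0.84 and -0.68 on the deposited scale. The test of the difference between both casted groups is the MOTS-c comparison above, which none of these genes passed.

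**Figure D4:**
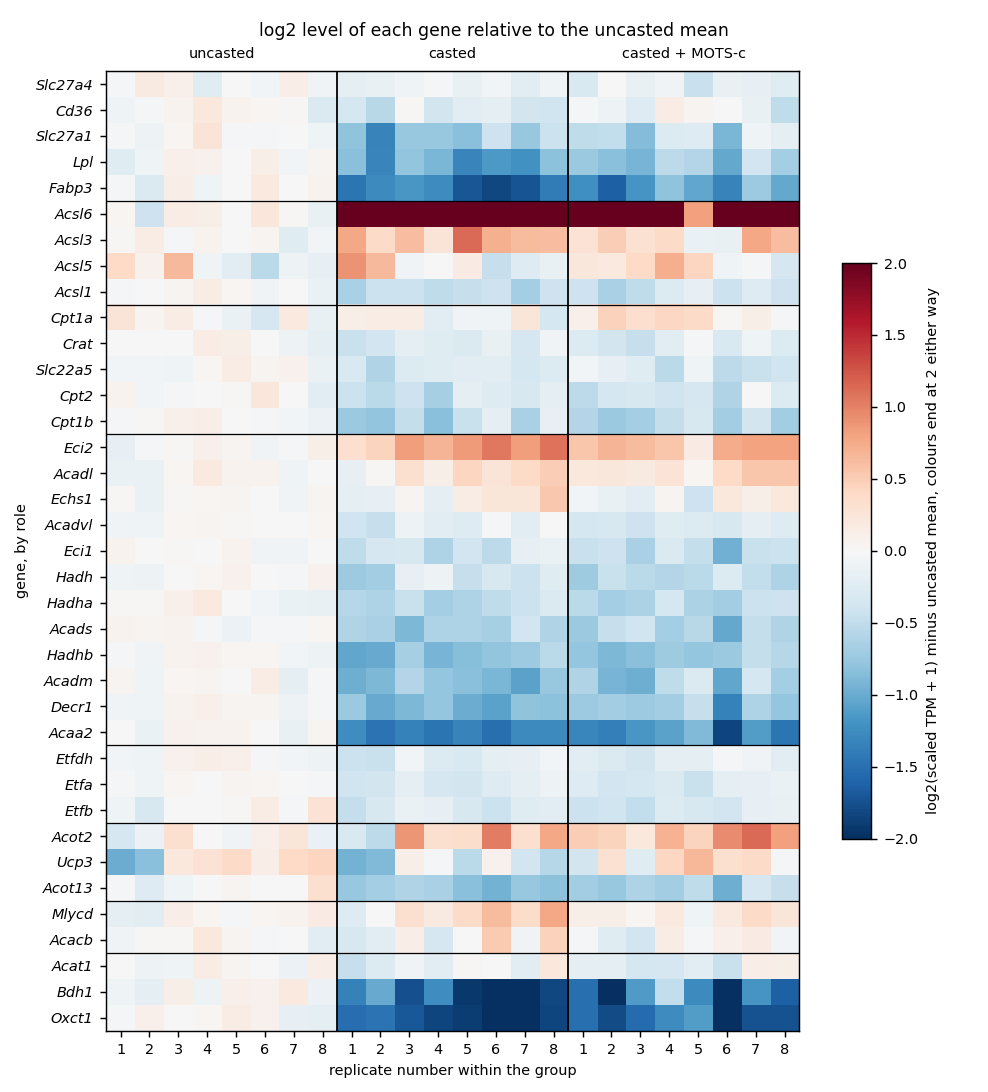
Log2(scaled TPM + 1) of the 37 genes in each of 24 libraries minus the mean of the 8 uncasted libraries, by role, with the replicate number along the bottom. Blue is lower and red higher, and colours end at 2 either way. Fabp3, Acaa2, Bdh1 and Oxct1 are blue and Acsl6 red in all 16 casted libraries.

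The genes were steadier without casting than with it. The coefficient of variation over 8 libraries had a median of 8.00% over the 37 genes without casting, 14.6% with casting and 13.7% with MOTS-c. The SD of log2 values was larger than in the uncasted group for 33 of the 37 genes in each casted group, a count not made over all genes. Its median over the 37 genes was 0.11, 0.21 and 0.20 in the 3 groups, and over all genes tested 0.16, 0.20 and 0.21. Etfa was the steadiest in uncasted muscle (3.08%), Acsl5 the least steady there and in casted muscle (34.0% and 43.1%), and Bdh1 the least steady with MOTS-c (48.8%).

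Other genes of the same pathway were read in the same way. Of 14 tested genes of fatty acid supply and activation outside the 37, 3 were higher and 8 lower with casting (4 and 3 on the deposited scale). Vldlr, a receptor for triglyceride-rich lipoproteins, rose most (1.53 ± 0.17, adjusted p = 4.7779e-08; 2.04 on the deposited scale), from 77.4 ± 6.62 to 234 ± 71.1 scaled TPM, and Cav1, caveolin 1, fell most (-0.92 ± 0.12, adjusted p = 9.0076e-07; -0.41 on the deposited scale). Of 6 other genes of carnitine handling 2 were lower and none higher (1 lower and 4 higher on the deposited scale). Cpt1c fell most among them (-0.49 ± 0.09, adjusted p = 9.5297e-05; -0.26 on the deposited scale). Among 25 other genes of acyl-CoA handling, most but not all of them mitochondrial, 3 were higher and 9 lower (17 and 2 on the deposited scale). Acot9 stood at 0.56 ± 0.10 (1.05 on the deposited scale) and Acot7 at -0.90 ± 0.07 (-0.42).

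Regulators of the pathway were mostly lower on the scaled values, with 13 of 20 lower, 2 higher and a median of -0.44. On the deposited scale 8 were higher, 4 lower and the median was -0.01. Sirt3, the mitochondrial deacetylase, fell most (-1.10 ± 0.10, adjusted p = 5.7e-09; -0.63 on the deposited scale), from 13.4 ± 1.22 to 5.79 ± 1.23 scaled TPM. Acaca, acetyl-CoA carboxylase 1, rose most (0.68 ± 0.12, adjusted p = 3.3154e-05; 1.12 on the deposited scale), from 5.06 ± 1.19 to 8.67 ± 1.48. None of the genes on these lists passed for MOTS-c against casting.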

How the data were processed

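Muscle RNA, purified by TRIzol followed by a column, was sequenced after poly-A capture, per the labels' protocols. The authors deposited 1 table of TPM per library. FastQC, STAR, RSEM, DESeq2 and the build GRCm38.p6 are named, without versions, per the submitters' processing notes; the strand setting and annotation release are not given in the sources used here. TPM keep no depth, so the number of reads behind a value is unknown and no counting interval is given.

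From these TPM, scaling factors were computed by a trimmed mean of log ratios (30% of ratios and 5% of levels trimmed at each end, unweighted). Genes with at least 0.5 TPM in 8 libraries were tested on log2(scaled TPM + 1) with limma 3.58.1 (R 4.3.3) in 1 fit of all 24 libraries, with Benjamini-Hochberg adjustment per comparison and a threshold of 0.05. A change on this scale understates that of low genes. Ratios of 8 pairs of genes were compared by an exact two-sided permutation test over samples and adjusted over 24 tests. Gene positions and exons are from GENCODE M21, promoter sequences from RefSeq, and near copies were found with blastn 2.17.0. The fit was tested on simulated data. The 37 genes and all lists were chosen with earlier results of these data known. Genes given in full were those with the largest casting change in each role, those past the threshold against their group, the 3 of smallest p for MOTS-c, members of the ratio pairs, and Acadm, Acaa2, Ucp3, Oxct1 and Bdh1; from each other list, the largest change past the threshold in each direction, except for some genes not reported here. Alternatives were other scalings, filters and pseudocounts, fits of only the groups compared, a replicate block, casted replicates 1 to 4 or 5 to 8 left out, and each library left out in turn.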

Additional observations from a re-analysis of the deposited data

Results flagged for a closer look

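Of 111 groups of 8 libraries tested (37 genes in 3 groups), 5 held a library far from the other 7 by the gap to its nearest neighbour over the group's range; chance alone gives such a gap in about 1 of 20 groups. MOTS-c replicate 5 was the lowest of its group for Acsl6, at 39.1 scaled TPM beside 99.8 in the next library, and for Eci2, at 74.4 beside 97.3. Its scaling factor was also the lowest of that group, at 0.891 beside 1.05 in the next library. The same library was the highest of its group for Acadm (255), Acaa2 (67.4) and Oxct1 (101.1), nearest the uncasted values. For Etfa (125) and Echs1 (49.0) it was the lowest, farthest from them. MOTS-c replicate 6 was the lowest for Decr1, at 20.7 beside 31.8. Uncasted replicate 4 was the highest for Slc27a1, at 58.2 beside 49.9, and casted replicate 2 the lowest for Slc22a5, at 4.28 beside 5.29. Causes were not tested.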

How the results depend on the processing

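All 37 genes kept their side of the threshold in each comparison with median-of-ratios scaling, with a pseudocount of 0.1 and with only the 2 groups compared in the fit. Those past the threshold also kept their direction. The scale decided most other counts. Casting gave 18 genes higher and 9 lower on the deposited TPM, and 14 and 11 after rescaling without the genes of the mitochondrial genome, beside 5 and 24; casting with MOTS-c gave 15 and 9, and 12 and 11, beside 5 and 24. Of all genes, that rescaling gave 56.4% higher and 9.90% lower with casting, and 54.2% and 8.6% for casting with MOTS-c. Without casted replicates 5 to 8, 3 genes were higher and 25 lower with casting (21.1% and 20.1% of all genes). Without replicates 1 to 4, 7 were higher and 24 lower with casting (28.3% and 28.7%), and 2 higher and 4 lower with MOTS-c (4.92% and 4.92%). With each library left out in turn, casting gave 3 to 6 higher (3 without casted replicate 8) and 24 to 25 lower. MOTS-c gave 0 and 0, casting with MOTS-c 4 to 6 and 23 to 25, and 12 to 15 of the 24 ratios passed. Of the 14607 to 14658 genes tested in those fits, casting gave 4006 to 4253 higher and 3849 to 4134 lower. MOTS-c gave 0 to 41 and 0 to 22 of them, and casting with MOTS-c 3608 to 3974 and 3420 to 3736.

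The lists that follow hold only genes past the threshold on the scaled values. Genes that did not pass there also turned positive on the deposited TPM. These were Slc27a4, Cpt1a, Ucp3 and Acat1 with casting, and Cd36, Echs1, Acacb and Acat1 for casting with MOTS-c. Among genes that had passed, changes that turned positive with casting on the deposited TPM were Cd36 0.21, Acsl1 0.0142, Cpt2 0.13, Crat 0.26, Slc22a5 0.13, Acadvl 0.30, Hadh 0.12, Eci1 0.14, Etfa 0.24, Etfb 0.22 and Etfdh 0.27. With rescaling without the mitochondrial genome they were Cd36 0.11, Cpt2 0.0255, Crat 0.15, Slc22a5 0.0435, Acadvl 0.20, Hadh 0.0168, Eci1 0.0358, Etfa 0.14, Etfb 0.12 and Etfdh 0.17. For casting with MOTS-c on the deposited TPM they were Slc27a4 0.15, Acsl1 0.0464, Cpt2 0.0758, Crat 0.19, Slc22a5 0.068, Acadvl 0.14, Etfa 0.16, Etfb 0.11 and Etfdh 0.24, and with that rescaling Slc27a4 0.0943, Crat 0.11, Slc22a5 0.0006, Acadvl 0.0631, Etfa 0.079, Etfb 0.0301 and Etfdh 0.16. The scaling itself made these shifts.

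Replicate numbers are shared by the 3 groups. Correlations between libraries of the same number ran from -0.24 to 0.37, with 6 of 24 over 0.1. Of the 24 libraries 8 were closest to their own number, more than random matching among 8 numbers would give. Whether the numbers pair the libraries was not tested. With the replicate block casting gave 6 higher and 25 lower, MOTS-c 0 and 0, casting with MOTS-c 5 and 24, and 12 ratios passed. Of all 14690 genes the block gave 4241 higher and 4134 lower with casting. It gave 13 and 5 for MOTS-c, and 3822 and 3659 for casting with MOTS-c. MOTS-c against casting did not pass with the block for Hadhb to Hadha (adjusted p = 0.082031) or Acsl1 to Acsl6 (0.057692). Acot2 and Ucp3 passed with casting under the block (0.047222 and 0.040852), and for casting with MOTS-c Cpt1a passed (0.027381) and Acsl3 did not (0.053642). Adding the near copies to Hadhb and Fabp3, chosen after seeing the data, changed no ratio's call. Depth is unknown, and 8 mice a group limit the precision.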

Other observations

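Peroxisomal beta-oxidation, which shortens very long chains, had 2 of 14 tested genes higher and 5 lower with casting (9 higher and 2 lower on the deposited TPM). Abcd2, a peroxisomal importer of acyl-CoA, fell most (-1.03 ± 0.11, limma adjusted p = 5.4746e-08; -0.55 on the deposited scale), from 23.97 ± 1.84 to 11.2 ± 1.54 scaled TPM (SD, n = 8 per group).

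The tricarboxylic acid cycle, which takes up the acetyl-CoA of beta-oxidation, had 19 of 21 genes lower and none higher with casting (12 lower and 4 higher on the deposited TPM). Idh2, the NADP-dependent isocitrate dehydrogenase, fell most (-1.09 ± 0.12, limma adjusted p = 5.4847e-08; -0.58 on the deposited scale), from 193 ± 14.2 to 90.9 ± 14.8 scaled TPM. Of 16 glycolytic genes 14 were lower and none higher (10 lower and 2 higher on the deposited TPM), and Ldha, lactate dehydrogenase A, fell most (-1.81 ± 0.17, limma adjusted p = 5.6785e-09; -1.29 on the deposited scale), from 2441 ± 176 to 717 ± 185. No gene of these lists passed for MOTS-c against casting in limma.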
